A study of Drosophila melanogaster with 8 samples.

Results

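The cells sorted with the tj-GAL4 driver from Drosophila melanogaster testes were compared with the unsorted testis suspension of the same strain. The comparison was chosen by its libraries, which are 2 sorted and 2 unsorted ones, 4 of the 8 libraries of the series, and it covers all genes. The flies carried tj-GAL4 (Kyoto stock) and UAS-GFP (Bloomington stock), so that green fluorescent protein (GFP) was made in cells in which the traffic jam driver is active. The unsorted libraries of this strain hold all cells of the dissociated testes, and the sorted ones hold the GFP-positive cells collected by flow cytometry. The other 4 libraries come from the same design with eya-GAL4 in place of tj-GAL4, and they entered the statistical fit and 1 comparison below. All 4 groups carry UAS-GFP, poly(A)+ RNA was sequenced throughout, and the labels do not state fly age, the sorting gate or how many cells or flies went into a library. A driver marks the cells in which its enhancer is active, and GFP can outlast that activity, so the sorted population is defined by fluorescence and not by the tj protein.

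The fly testis is built from germ cells and a somatic lineage that accompanies them. At its tip a cluster of hub cells sends the ligand Unpaired to the cyst stem cells and germline stem cells around it. A pair of cyst cells then encloses each germline clone, stops dividing and stays with it until the sperm are released. The Maf factor tj and the homeobox factor zfh1 are known from cyst stem cells and early cyst cells, tj also from the hub, and eya and its homeobox partner so from cyst cells that enclose spermatocytes.

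Gene counts were 23044927 and 16696333 in unsorted replicates 1 and 2 and 14298570 and 25344721 in sorted replicates 1 and 2. Unsorted replicate 2 stood apart. Its replicate differed from it by more than 2-fold at 3877 genes, where the sorted replicates did so at 643. Mitochondrially encoded genes took 31.7% of its counts and 11% to 19.6% in the other 3 libraries of the strain. Summed gut markers stood at 2899 CPM (counts scaled to library size with TMM factors) in it and at 95.6 to 179 CPM in the other 3. Counts or medians without it, or without another tj-GAL4 library, are given below for the gene lists described at length where they moved most. Calls over all genes moved too, so such counts show how a list depends on a library, not how it differs from other genes. The median log2 change of all genes tested was -0.08 with all libraries, -0.01 without unsorted replicate 2 and 0.13 without unsorted replicate 1. Nothing beyond the word biological replicates says how the replicates were made, and the replicate number also goes with the length of the index sequence. The p-values and standard errors rest on the spread within all 4 groups fitted together, not on the tj-GAL4 libraries alone. The eya-GAL4 replicates were closer, more than 2-fold apart at 350 genes in unsorted and 184 in sorted cells. A fit of the tj-GAL4 libraries alone called 257 genes, against 1428 with all 8 libraries.

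All 4 genes named as markers of the early cyst population were higher in both sorted libraries than in both unsorted ones. The gene tj itself (FBgn0000964, 2L, 19464267 to 19467758) stood at 1.53 and 1.96 CPM in unsorted replicates 1 and 2 and at 45.5 and 28.9 CPM in sorted replicates 1 and 2, a log2 change of 4.42 ± 0.44 (SE, n = 2 libraries per group, adjusted p = 0.0014). Six4 (FBgn0027364, 3L, 20788886 to 20792777), a homeobox partner of eya, stood at 5.47 and 4.08 CPM unsorted and at 76.1 and 50.2 CPM sorted (3.71 ± 0.36). The Cdc25 phosphatase gene stg (FBgn0003525, 3R, 29251826 to 29255800), which starts mitosis, stood at 3.83 and 2.98 CPM unsorted and at 38.5 and 24.4 CPM sorted (3.20 ± 0.37). In all of these sorted replicate 1 was the higher of the pair, and the groups were far apart. The receptor gene of the JAK-STAT pathway, dome (FBgn0043903, X, 19676061 to 19683518), was already well detected in whole testes at 65.5 and 68.7 CPM and reached 333 and 251 CPM in sorted cells (2.12 ± 0.32, adjusted p = 0.0055). Each of the 4 calls was kept when any single tj-GAL4 library was left out.

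Of the whole early cyst list of 8 genes, 6 rose and 2 did not pass the test. The other 2 that rose were fs(1)Yb, a somatic piRNA factor (9.67 and 3.53 CPM unsorted, 47.3 and 40.0 CPM sorted), and ptc, the Hedgehog receptor gene (13.1 and 9.58 CPM unsorted, 37.2 and 27.9 CPM sorted). zfh1 was at 45.5 and 19.9 CPM in unsorted cells and at 59.9 and 41.8 CPM in sorted cells, overlapping groups with a log2 difference of 0.63 ± 0.41 (adjusted p = 0.31). Socs36E, a feedback inhibitor of JAK-STAT signalling, was at 38.3 and 133 CPM unsorted and at 79.8 and 74.0 CPM sorted (-0.15 ± 0.55), with the sorted values lying between the unsorted ones. The sign of Socs36E turned without unsorted replicate 2 (0.98 ± 0.39, adjusted p = 0.07). Markers linked to older cyst cells moved as well: eya (41.0 and 16.7 CPM unsorted, 212 and 147 CPM sorted), so, nord and cv-2 rose, and Abd-B fell. Of these calls only that of cv-2 was kept when any single tj-GAL4 library was left out. The calls of fs(1)Yb and ptc were not kept either. Of the hub list, hh and CadN rose, 2 of 5, while upd1, the hub's Unpaired ligand, stood at 18.5 and 14.5 CPM unsorted and at 8.16 and 12.6 CPM sorted (adjusted p = 0.22). Early and mature cyst markers were both high in the sorted libraries. Bulk libraries cannot tell a shift in the share of cells of a type from a shift in RNA per cell.

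**Figure D1:**
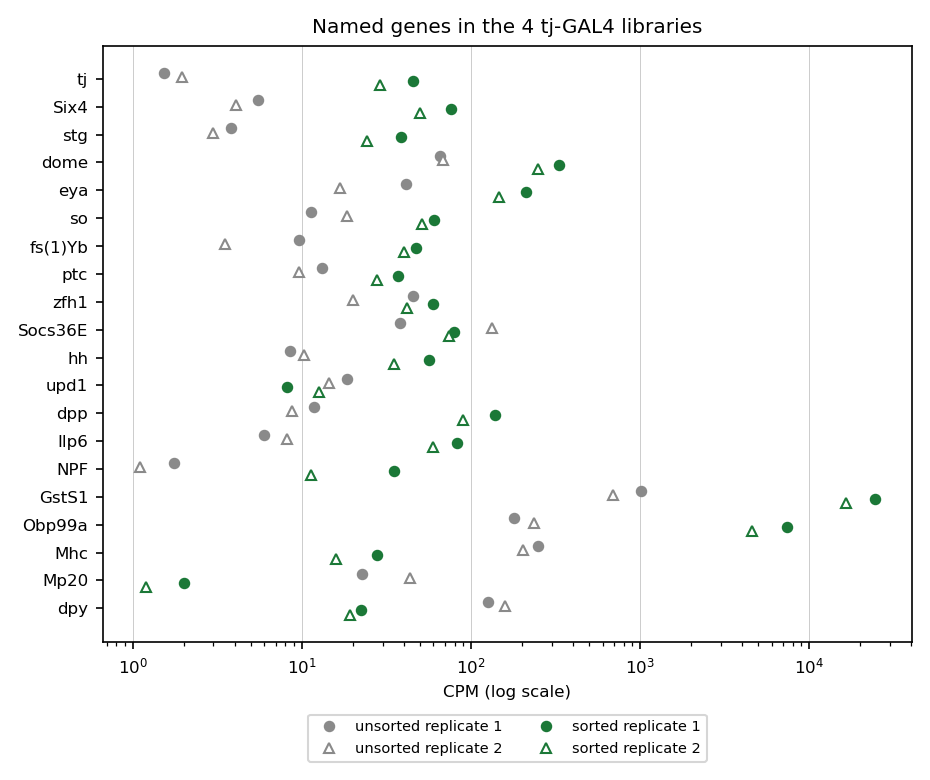
CPM (x axis, log scale) of 20 genes in the 4 tj-GAL4 libraries, with unsorted libraries in grey, sorted libraries in green, replicate 1 as filled circles and replicate 2 as open triangles. The sorted points of tj, Six4, stg and dome lie to the right of the unsorted ones, those of zfh1, Socs36E and upd1 do not separate to that side, and those of Mhc, Mp20 and dpy lie to the left.

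Across 12570 genes tested, 1129 were called higher in sorted cells (8.98%) and 299 lower (2.38%) at an adjusted p under 0.05. Every one of these calls had the same sign in replicate 1 and in replicate 2 taken as separate pairs. A call at this threshold nearly requires that, so it is no independent support. The pairs share a replicate number and an index length, and the labels name no other link. The rises were stronger in 1 library, as 1054 of the 1129 were higher in sorted replicate 1 than in sorted replicate 2. A total of 257 rises (2.04% of genes tested) and 17 falls (0.135%) stayed called when any 1 of the 4 tj-GAL4 libraries was left out, and these are called held below. The held rises ran from 1.92 to 6.35 on the log2 scale with a median of 3.50, and 186 of them were over 8-fold. They were the same genes as the rises called without sorted replicate 1, so leaving out that library decided which rises were held. Groups that merely did not overlap were common, 32.9% of genes with sorted cells higher and 22.9% with sorted cells lower. The counts depended on the libraries used: without sorted replicate 1, 257 rises and 20 falls were called, and without unsorted replicate 2, 3113 of 12451 genes rose (25%) and 1350 fell (10.8%). All 1129 rises and 249 of the 299 falls were among the calls made without unsorted replicate 2.

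**Figure D2:**
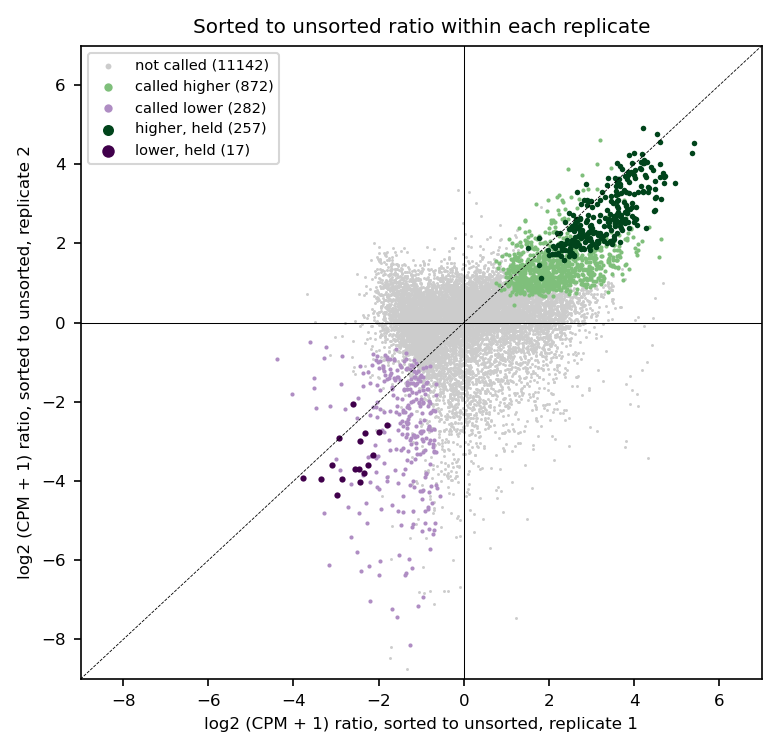
Each point is 1 of the 12570 genes tested, with the log2 ratio of sorted to unsorted CPM + 1 in replicate 1 (x axis) and in replicate 2 (y axis), and the dashed line marks equal ratios. The 257 held rises in dark green lie mostly below the dashed line, at larger ratios in replicate 1, and the cloud of genes not called spreads along the y axis below 0.

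**Figure D3:**
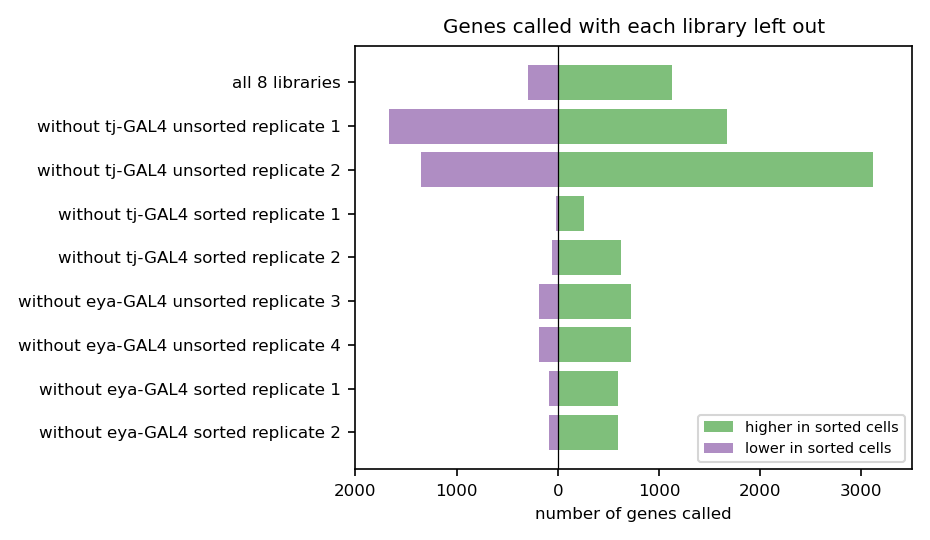
Number of genes called higher (right) and lower (left) in tj-GAL4 sorted cells with all 8 libraries and with each library left out. The calls rise from 1129 and 299 to 3113 and 1350 without unsorted replicate 2 and drop to 257 and 20 without sorted replicate 1.

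Among transcription factors, the largest held rises were those of the forkhead genes. bin (FBgn0045759, 3L, 6990622 to 6994447), known from visceral mesoderm, stood at 1.26 and 0.236 CPM unsorted and at 32.1 and 22.2 CPM sorted (5.04 ± 0.64). croc (FBgn0014143, 3L, 21474133 to 21476479), known from head development in the embryo, stood at 4.28 and 4.08 CPM unsorted and at 97.5 and 83.6 CPM sorted (4.43 ± 0.34). With FoxP, 3 of 10 tested forkhead genes rose and none fell. The pioneer factor gene zld (FBgn0259789, X, 19766465 to 19783548), known for opening the early embryonic genome, went from 7.25 and 5.89 CPM to 110 and 69.4 CPM (3.76 ± 0.36), and its sorted values exceeded all unsorted ones. sage, which encodes a bHLH factor known from salivary glands, was at 21.0 and 21.3 CPM unsorted and at 306 and 171 CPM sorted (3.50 ± 0.39), and Sobp, for a protein that binds Sine oculis, rose by 3.72 ± 0.40. zld, sage and Sobp were picked out after their values were seen.

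Of 27 tested BTB, bZIP and Ets factor genes 4 rose and none fell, at a median log2 change of 0.07. The BTB factor genes bab1 and bab2, which pattern limbs and the ovary, rose by 3.08 ± 0.43 and 3.09 ± 0.46, and bab2 was not held. Of the sex determination list, 4 of 19 rose: ix, a Mediator subunit that works with Doublesex (0.595 and 0.628 CPM unsorted, 5.99 and 4.38 CPM sorted), fru (1.88 ± 0.36), and the splicing factor genes vir and fl(2)d (1.22 ± 0.32 and 1.64 ± 0.33). dsx itself was at 9.45 and 23.1 CPM unsorted and at 54.1 and 35.0 CPM sorted, groups that did not overlap but did not pass the test (adjusted p = 0.082), and it overlaps a gene counted at a higher level. The list of GATA, mesoderm and zinc-finger factors was mixed, with 1 rise (ush, 1.99 ± 0.34) and 3 falls of 26, none of them held. Its median log2 change was -0.32 with all libraries, -0.13 without unsorted replicate 2 and 0.30 without unsorted replicate 1. kni, known from tracheal development, and drm and GATAe, known from the gut, fell by 2.98 ± 0.54, 2.55 ± 0.61 and 3.19 ± 0.85, and GATAe was no longer called without unsorted replicate 2 (adjusted p = 0.087). In that library drm stood at 50.4 CPM and GATAe at 13.1 CPM, against 13.9 and 2.23 CPM in unsorted replicate 1.

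Of 24 tested genes of BMP and activin signalling, a pathway of secreted ligands read through serine/threonine kinase receptors, 12 rose and none fell (median log2 change 1.26, against -0.08 for all genes tested). The median was 2.25 without unsorted replicate 2 and 0.90 without unsorted replicate 1, and 5 of the rises were held. The ligand gene dpp (FBgn0000490, 2L, 2428372 to 2459823) stood at 11.8 and 8.80 CPM unsorted and at 138 and 89.6 CPM sorted (3.47 ± 0.36). Extracellular modulators of the ligands rose with it: magu (3.11 ± 0.40), cv-2 (3.19 ± 0.42), cv (2.89 ± 0.34) and sog (2.08 ± 0.41). Of the receptors, wit (2.16 ± 0.32) and put (1.28 ± 0.34) rose, and tkv was at 26.2 and 47.0 CPM unsorted and at 59.3 and 43.4 CPM sorted, overlapping groups. The second ligand gene, gbb, was at 8.63 and 53.6 CPM unsorted and at 67.9 and 53.6 CPM sorted (0.97 ± 0.67, adjusted p = 0.34). Its value rested on 1 library, as it was called without unsorted replicate 2 (2.79 ± 0.37, adjusted p = 0.00028).

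Of 14 Hedgehog pathway genes, 6 rose and none fell, and 2 of the rises were held. The list's median log2 change was 1.19 with all libraries, 1.51 without unsorted replicate 2 and 1.19 without unsorted replicate 1. The ligand gene hh (FBgn0004644, 3R, 23128169 to 23141906) stood at 8.56 and 10.3 CPM unsorted and at 56.8 and 35.1 CPM sorted (2.29 ± 0.34). shf, for a secreted protein that helps Hedgehog to spread, stood at 1.38 and 2.75 CPM unsorted and at 21.9 and 16.1 CPM sorted (3.23 ± 0.42). The transcription factor gene ci rose by 1.81 ± 0.46, so that ligand, modulator, receptor and effector genes were all among the rises, and hh and shf were the held ones.

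Receptor tyrosine kinase genes and their ligands gave 6 rises and no fall of 23 tested. There were 14 rises without unsorted replicate 2 and 1 without sorted replicate 1. boss (FBgn0000206, 3R, 25961994 to 25966948) and sev, the ligand and receptor that specify a photoreceptor in the eye, both rose. boss stood at 3.16 and 1.81 CPM unsorted and at 40.1 and 24.3 CPM sorted (3.67 ± 0.42), and sev stood at 16 and 41.4 CPM unsorted and at 209 and 152 CPM sorted (2.66 ± 0.50). Of the EGF receptor ligands, vn rose (2.22 ± 0.41) and spi was at 25.3 and 32.8 CPM unsorted and at 44.6 and 48.2 CPM sorted (adjusted p = 0.16). The secreted inhibitor gene aos, which shares its position with another gene, rose by 2.79 ± 0.35 and was picked out after its values were seen. Egfr stood at 7.85 and 23.9 CPM unsorted and at 69.4 and 51.1 CPM sorted, groups that did not overlap, and it narrowly missed the threshold (1.93 ± 0.55, adjusted p = 0.056).

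JAK-STAT signalling gave 2 rises among 15 tested genes, dome and the transcription factor gene Stat92E (1.87 ± 0.43), with a median of -0.02. In the Wnt lists, 2 of 5 ligand genes and 6 of 21 receptor and transducer genes rose, against 0 and 1 without sorted replicate 1. Wnt2, which acts in the male gonad, stood at 8.82 and 28.8 CPM unsorted and at 177 and 123 CPM sorted (3.0 ± 0.54), and Wnt4 rose by 2.62 ± 0.47. The pseudokinase co-receptor gene otk (FBgn0004839, 2R, 12001473 to 12019846) stood at 2.90 and 4.95 CPM unsorted and at 62.8 and 44.4 CPM sorted (3.78 ± 0.46). Its paralog otk2, picked out after its values were seen, rose by 3.30 ± 0.45. The further rises included fz3 (1.5 ± 0.30), the RYK-type receptor gene dnt (1.77 ± 0.30) and the beta-catenin gene arm (1.53 ± 0.35), which were smaller and not held.

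Of 18 tested Notch pathway genes, 5 rose and none fell, against 8 rises and 1 fall without unsorted replicate 2 and 1 rise without sorted replicate 1. The receptor gene N stood at 20.0 and 18.5 CPM unsorted and at 56.4 and 50.2 CPM sorted (1.47 ± 0.28), and mam, the coactivator, and mib1, a ubiquitin ligase for the ligands, rose by 2.01 ± 0.45 and 1.79 ± 0.30. The larger rises were in the Enhancer of split complex on 3R, whose genes are direct Notch targets. E(spl)m3-HLH (FBgn0002609, 3R, 26021823 to 26023127) stood at 3.09 and 4.48 CPM unsorted and at 49.3 and 46.3 CPM sorted (3.67 ± 0.41), and E(spl)mbeta-HLH rose by 3.08 ± 0.49. A pair of genes of the same complex that encode Bearded-type proteins, outside the list and picked out after their values were seen, were E(spl)malpha-BFM (3.59 ± 0.41) and E(spl)m2-BFM (3.56 ± 0.47), both held. The complex was close to equal in the sorted replicates, with E(spl)malpha-BFM at 20.1 and 25.3 CPM.

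Of 16 tested genes of the Hippo and Fat-Dachsous list, 8 rose and none fell. Only 1 of the rises was held. This pathway restrains growth through the kinases hpo and wts, which act on the coactivator Yorkie. fj, a Golgi kinase gene, rose from 0.298 and 0.471 CPM to 5.92 and 3.84 CPM (3.69 ± 0.55). Tgi, for a corepressor at Yorkie's targets, was the held member (1.95 ± 0.30). hpo (1.62 ± 0.31), its partner gene sav (1.37 ± 0.30) and the upstream genes Mer (1.51 ± 0.31) and kibra (1.80 ± 0.40) rose less, and wts was at 41.4 and 36.7 CPM unsorted and at 91.3 and 71.1 CPM sorted, just short of the threshold (adjusted p = 0.051). sav shares its position with a gene counted at a higher level.

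**Figure D4:**
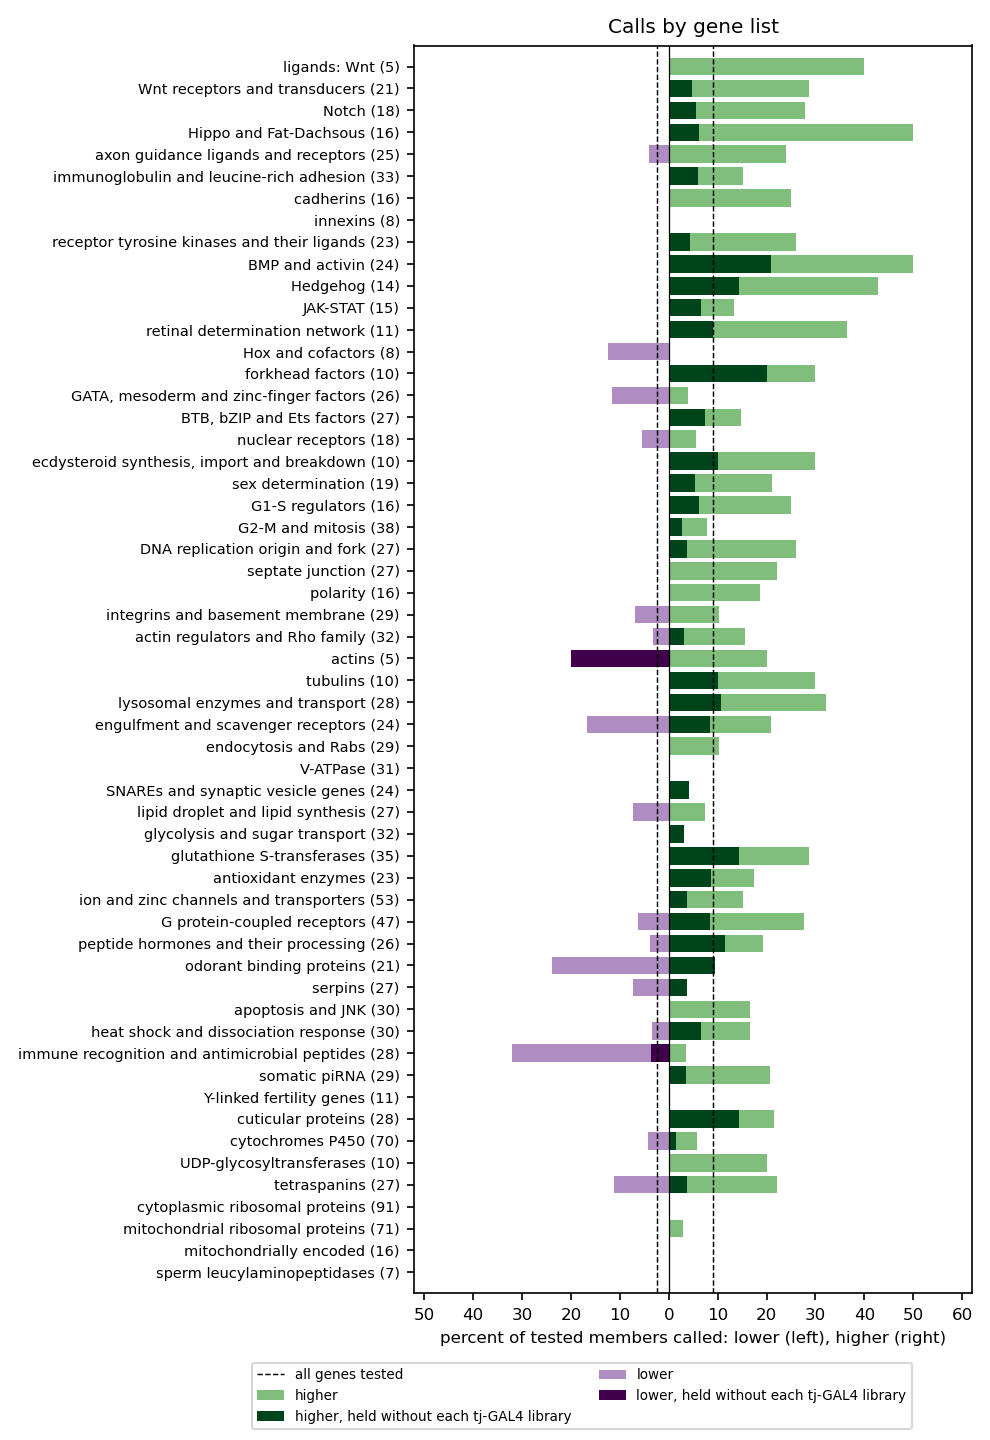
Percent of the tested members of each gene list (number tested in brackets) called higher (right, green) or lower (left, purple) in sorted cells, with the held calls as the dark part of each bar and dashed lines at the 8.98% and 2.38% of all genes tested. The bars of BMP and activin and of Hippo genes reach 50% on the right, with no bar on the left, and the immune list has the longest bar on the left among the lists shown.

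Of the peptide hormone genes, Ilp7 (FBgn0044046, X, 3667621 to 3668845), a relaxin-like insulin family peptide, stood at 0.0744 and 0.0785 CPM unsorted and at 5.69 and 3.14 CPM sorted (5.73 ± 0.62), although it overlaps Parg, which was counted at 25.6 CPM in sorted cells. Ilp6 (FBgn0044047, X, 2331493 to 2334658), the insulin-like growth factor of the fat body, stood at 5.95 and 8.17 CPM unsorted and at 83.0 and 60.0 CPM sorted (3.34 ± 0.34). Neuropeptide F, NPF (FBgn0027109, 3R, 16609220 to 16611325), stood at 1.75 and 1.10 CPM unsorted and at 35.3 and 11.4 CPM sorted (4.0 ± 0.61), with the sorted replicates further apart than for Ilp6. In the whole list of peptide hormones and their processing, 5 of 26 rose and 1 fell. Its median log2 change was 1.27 with all libraries, 1.24 without unsorted replicate 2 and 1.39 without unsorted replicate 1. Lst, the decretin limostatin, also rose (2.68 ± 0.53), and Nplp2 fell (-3.96 ± 0.71) from 11.8 and 52.0 CPM to 2.10 and 1.98 CPM.

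G protein-coupled receptors gave 13 rises and 3 falls of 47 tested, and 4 rises and no fall without sorted replicate 1. CCKLR-17D3 (FBgn0030954, X, 18764483 to 18774027), a receptor for sulfakinin peptides, stood at 1.71 and 0.550 CPM unsorted and at 31.6 and 24.3 CPM sorted (4.55 ± 0.54). The adenosine receptor gene AdoR (3.36 ± 0.45), the Methuselah-like gene mthl5 (3.31 ± 0.40) and the latrophilin gene Cirl (2.92 ± 0.37) were the other held ones. Cirl was the most abundant of these, at 54.4 and 65.7 CPM unsorted and at 545 and 363 CPM sorted. A pair of genes known from neurons and muscle, picked out after their values were seen, also rose: Tbh, the octopamine synthesis enzyme (2.19 and 1.26 CPM unsorted, 26.8 and 17.1 CPM sorted), and GluRIIC, a glutamate receptor subunit of the neuromuscular junction (6.47 and 5.89 CPM unsorted, 88.6 and 63.1 CPM sorted). Of the 5 tested neuron markers 1 rose, the synaptobrevin gene nSyb (3.96 ± 0.50), and none fell, and the summed level of that list was 90.1 and 70.0 CPM unsorted and 179 and 128 CPM sorted. nSyb alone stood at 2.90 and 5.89 CPM unsorted and at 86.4 and 48.8 CPM sorted. Whether neurons in the sorted fraction bear on these rises was not tested. Channel genes of the TRP and DEG/ENaC families rose too, with pain, a TRPA channel, at 3.39 ± 0.42, wtrw, its relative, picked out after its values were seen, at 3.57 ± 0.40 and ppk30 at 4.13 ± 0.37. In the list of ion and zinc channels and transporters 8 of 53 rose and none fell (2 without sorted replicate 1), among them the zinc transporter gene ZnT63C (2.68 ± 0.39) and the transferrin gene Tsf1 (47.2 and 159 CPM unsorted, 1194 and 689 CPM sorted).

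Adhesion, matrix and cytoskeleton genes rose in part. E-cadherin (shg, 2.13 ± 0.39) and N-cadherin (CadN, 1.73 ± 0.36) were among 4 rises of 16 cadherins. The guidance genes Sema2a (2.70 ± 0.40) and robo2 (2.35 ± 0.36) were among 6 rises and 1 fall of 25. None of the cadherin or guidance calls was held. rdo, which encodes a leucine-rich repeat surface protein, and Kal1, related to human anosmin, had the largest changes of the adhesion list at 4.83 ± 0.47 and 4.41 ± 0.33. Septate junction genes gave 6 rises of 27, and innexins, the gap junction genes, gave none of 8 by edgeR, DESeq2 or limma, with 1 lower at an unadjusted p under 0.05. Without unsorted replicate 2, 20 septate junction genes and 4 innexins rose. None of the septate junction rises was held. Of 16 polarity genes 3 rose (12 without unsorted replicate 2, 0 without sorted replicate 1), with baz, the Par-3 homolog, at 2.49 ± 0.50, and of 27 tetraspanins 6 rose and 3 fell, with Tsp5D the held rise (4.14 ± 0.47).

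Basement membrane genes split, but none of the calls was held. The list of integrins and basement membrane gave 3 rises and 2 falls of 29. The laminin chain gene LanA rose from 150 and 83.8 CPM to 568 and 414 CPM (2.07 ± 0.49), and the perlecan gene trol rose by 1.96 ± 0.39. The collagen IV genes vkg and Col4a1 fell by 3.07 ± 0.66 and 2.97 ± 0.71. vkg stood at 148 and 31.7 CPM unsorted and at 12 and 9.41 CPM sorted. Collagen IV is known to be made by hemocytes and fat body, and of the 7 tested hemocyte markers 2 rose and 2 fell; their part in the collagen falls was not tested. Among tubulins 3 of 10 rose and none fell: alphaTub85E (61.8 and 28.8 CPM unsorted, 1152 and 903 CPM sorted, 4.5 ± 0.49), betaTub60D (3.29 ± 0.53) and betaTub56D (2.45 ± 0.45). Of the actins, Act42A, a cytoplasmic form, rose by 1.97 ± 0.38 and Act57B, a muscle form, fell by 3.69 ± 0.48.

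Secreted and detoxifying proteins made up the most abundant rises. Per length of transcript, scaled to the same total in each library, the 3 highest nuclear transcripts of sorted cells outside the ribosomal proteins were Obp44a (21430 and 15256), GstS1 (20385 and 14836) and Obp99a (17748 and 12053). In the unsorted cells they ranked 94, 113 and 208. Obp99a (FBgn0039678, 3R, 29671657 to 29672334) stood at 181 and 235 CPM unsorted and at 7408 and 4626 CPM sorted (4.86 ± 0.50), and Obp44a (FBgn0033268, 2R, 8134170 to 8135315) stood at 504 and 894 CPM unsorted and at 15778 and 10329 CPM sorted (4.22 ± 0.53). Both are odorant binding proteins, small secreted carriers, and the rest of that family did not follow: 2 of 21 rose and 5 fell, among them Obp99b (-4.70 ± 0.85), next in name to Obp99a, and Obp99c (-5.38 ± 1.07). The unsorted levels of Obp99b were 13.7 and 92.5 CPM and those of Obp99c 13.3 and 138 CPM, high in the replicate that stood apart.

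Glutathione S-transferases, which couple glutathione to lipophilic compounds, gave 10 rises and no fall of 35, and 5 of the rises were held. The list's median log2 change was 0.91 with all libraries, 2.33 without unsorted replicate 2 and 0.37 without unsorted replicate 1. Their summed level was 1798 and 2805 CPM unsorted and 29090 and 19922 CPM sorted, most of it from GstS1 (1009 and 694 CPM unsorted, 24606 and 16467 CPM sorted). GstD3 (4.21 ± 0.38), GstE2 (3.91 ± 0.35), GstE14 (5.03 ± 0.66) and GstD9 (2.62 ± 0.37) were the other held members, and GstD1 was at 303 and 871 CPM unsorted and at 1639.5 and 1214 CPM sorted without passing the test (adjusted p = 0.15). Close paralogs can share reads, so single members are uncertain. Of the antioxidant enzymes 4 of 23 rose, with Sod3, an extracellular superoxide dismutase, at 20.5 and 25.3 CPM unsorted and at 434 and 276 CPM sorted (3.96 ± 0.41), and Prx2540-2 at 3.67 ± 0.40, which has a near copy in Prx2540-1. Cytochromes P450 gave 4 rises and 3 falls of 70. The list's median log2 change was -0.72 with all libraries, 0.02 without unsorted replicate 2 and -1.12 without unsorted replicate 1. For all genes tested these medians were -0.08, -0.01 and 0.13. The 1 held P450 was Cyp18a1 (FBgn0010383, X, 18688538 to 18693042), which inactivates ecdysteroids, at 0.521 and 0.314 CPM unsorted and at 13.5 and 11.9 CPM sorted (4.85 ± 0.53). EcR, the ecdysone receptor gene, was at 8.26 and 26.3 CPM unsorted and at 36.8 and 20.1 CPM sorted, overlapping groups. It shares its position with a gene counted at a higher level.

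Lysosomal genes gave 9 rises and no fall of 28, against 17 rises and 1 fall without unsorted replicate 2, and 3 rises without sorted replicate 1. The glucocerebrosidase gene Gba1b (FBgn0051414, 3R, 23704804 to 23708512) stood at 3.72 and 3.22 CPM unsorted and at 67.4 and 55.0 CPM sorted (4.13 ± 0.35). Ect3, a beta-galactosidase gene (3.97 ± 0.36), and Npc2b, a sterol carrier of the Niemann-Pick type (2.20 ± 0.32), were held too, and the mannosidase gene LManII rose by 3.08 ± 0.52. None of 31 V-ATPase subunit genes, which acidify the lysosome, was called in either direction by edgeR (median -0.70); at an unadjusted p under 0.05, 1 was higher and 7 were lower, and DESeq2 called 4 and limma 1 lower. Without unsorted replicate 2, 12 of them rose and 7 fell. The engulfment and scavenger receptor list was mixed at 5 rises and 4 falls of 24, with rises of drpr, the receptor by which glia and epithelia clear cell debris (72.9 and 72.5 CPM unsorted, 521 and 332 CPM sorted), and NimA (4.09 ± 0.40). Sugar uptake was represented by Glut1 (FBgn0264574, 3L, 914074 to 993788), at 20.2 and 28.4 CPM unsorted and at 326 and 222 CPM sorted, the only one of 32 glycolysis and sugar transport genes called. Slc45-1, a sugar transporter gene, and fabp, for a fatty acid binding protein, rose by 3.85 ± 0.33 and 2.97 ± 0.40 and were picked out after their values were seen.

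The largest rise of all held genes was that of a cuticular protein. Cpr66Cb (FBgn0035875, 3L, 8336672 to 8338595) went from 0.856 and 0.393 CPM to 77.5 and 31.6 CPM (6.35 ± 0.79). Of 28 tested cuticular protein genes 6 rose and none fell, although the list's median was -0.10. serp, a chitin deacetylase gene picked out after its values were seen, rose by 3.33 ± 0.43, and Spn43Aa was the 1 rise, against 2 falls, of 27 serpins. The small heat shock gene Hsp67Ba stood at 18.2 and 26.6 CPM unsorted and at 382 and 270 CPM sorted (3.86 ± 0.38), and Hsp23 rose by 2.16 ± 0.49. In the whole list of heat shock and dissociation response genes 5 of 30 rose and 1, sr, fell.

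Of 27 DNA replication genes 7 rose and none fell. The list's median log2 change was 1.03 with all libraries, 0.69 without unsorted replicate 2 and 1.34 without unsorted replicate 1. RnrS, a subunit of ribonucleotide reductase, was the only held rise (2.24 ± 0.29). The helicase subunit genes Mcm3 (2.2 ± 0.38) and Mcm7 (1.96 ± 0.37) rose too. Mcm7 was at 4.24 and 3.14 CPM unsorted and at 14.8 and 14.2 CPM sorted. G1-S regulators gave 4 rises of 16, stg included, with CycD (1.84 ± 0.35) and Rbf (1.90 ± 0.40) among them. The list of 38 G2-M and mitosis genes, which also holds stg, gave 3 rises and no fall. Its median log2 change was -0.23 with all libraries, -0.74 without unsorted replicate 2 and 0.72 without unsorted replicate 1. The somatic piRNA list gave 6 rises of 29, with piwi itself at 11.1 and 7.93 CPM unsorted and at 84.2 and 76.0 CPM sorted (3.07 ± 0.35). That list's median was 0.57 with all libraries, 0.30 without unsorted replicate 2 and 1.26 without unsorted replicate 1. Dcr-2, the enzyme of the siRNA pathway, rose by 2.48 ± 0.37 and was picked out after its values were seen.

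Falls were fewer, and 13 of the 17 held ones were of sarcomere or other muscle genes. Of the 13 muscle markers 11 fell and none rose, with a median of -3.37, and 8 of the falls were held. Mp20 (FBgn0002789, 2R, 13246670 to 13248880), a calponin-like protein, stood at 22.8 and 43.7 CPM unsorted and at 2.02 and 1.2 CPM sorted (-4.39 ± 0.53). The myosin heavy chain gene Mhc (FBgn0264695, 2L, 16766566 to 16788766) stood at 248 and 204 CPM unsorted and at 27.9 and 15.9 CPM sorted (-3.37 ± 0.47). bt (projectin), Mlc1 (myosin light chain), up (troponin T), Tm2 (tropomyosin) and Prm (paramyosin) fell by 3.94 ± 0.50, 3.92 ± 0.48, 3.42 ± 0.46, 3.37 ± 0.46 and 2.64 ± 0.39. Their sorted levels were below both unsorted ones in every case, and they were not at 0. Further held falls outside the list were of sarcomere genes too: Mf, Zasp66, Mlp84B, Unc-89 and tn. The summed level of the muscle list was 2131 and 1921 CPM unsorted and 647 and 658 CPM sorted.

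Held falls other than those of sarcomere genes were few. dpy (FBgn0053196, 2L, 4477462 to 4614300), for a giant matrix protein that ties epithelia to cuticle, stood at 126 and 159 CPM unsorted and at 22.4 and 19.2 CPM sorted (-2.78 ± 0.30). The antimicrobial peptide gene AttD stood at 5.10 and 3.46 CPM unsorted and at 0 and 0.0775 CPM sorted, and the lectin gene lectin-28C and CG5177 fell by 3.77 ± 0.43 and 3.75 ± 0.56. Of 28 immune recognition and antimicrobial peptide genes 9 fell and 1 rose. Their median log2 change was -1.59 with all libraries, -0.39 without unsorted replicate 2 and -2.19 without unsorted replicate 1. That list summed to 2528 CPM in unsorted replicate 2 and to 459 to 555 CPM in the other 3 libraries. Very large falls could rest on that library alone: Peritrophin-15a, of the gut lining, stood at 3.65 and 356 CPM unsorted and at 0.449 and 1.39 CPM sorted, and it was not called without unsorted replicate 2 (adjusted p = 0.11).

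Of the 3 germline marker lists, 2 genes were called with all libraries, the spermatid markers p-cup and wa-cup, both lower. Of 11 spermatocyte markers none was called by edgeR (median -1.01), 4 were lower at an unadjusted p under 0.05, DESeq2 called 3 lower and limma none. Without unsorted replicate 2, 10 of them fell. aly, a meiotic arrest gene, stood at 28.8 and 11.3 CPM unsorted and at 7.19 and 10.1 CPM sorted, and can, a testis-specific TAF, stood at 74.9 and 36.8 CPM unsorted and at 18.9 and 29.5 CPM sorted. The summed spermatocyte level was 1179 and 330 CPM unsorted and 334 and 437 CPM sorted, so unsorted replicate 2 lay at the level of the sorted cells. Of 12 spermatid markers 2 fell (summed 6547 and 14767 CPM unsorted, 3796 and 6157 CPM sorted), and Mst87F remained at 494 and 881 CPM in sorted cells. The spermatid list's median log2 change was -0.98 with all libraries, -0.65 without unsorted replicate 2 and -1.41 without unsorted replicate 1. None of 7 early germline markers was called by edgeR, DESeq2 or limma, and 0 had an unadjusted p under 0.05 (summed 202 and 92.9 CPM unsorted, 104 and 141 CPM sorted). No list of germline markers was at 0 in sorted cells, and germline transcripts stayed among the most abundant: the spermatid gene Mst84Db ranked 15 per length. Sorted replicate 2 was above sorted replicate 1 in all 3 germline sums and below it in the early cyst sum (717 and 538 CPM in sorted replicates 1 and 2).

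**Figure D5:**
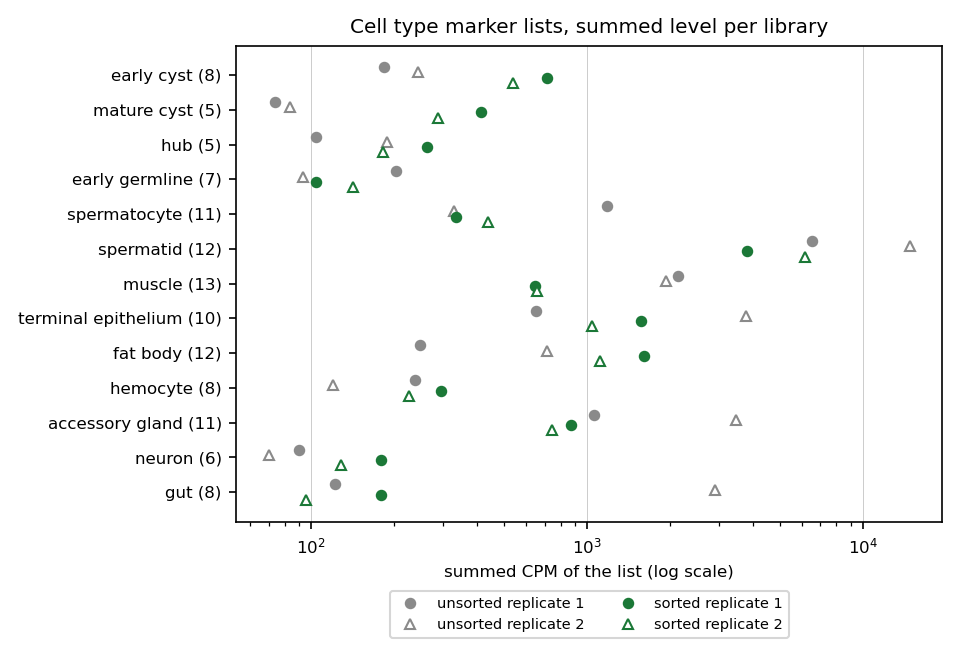
Summed CPM (x axis, log scale) of each cell type marker list (number of genes in brackets) in the 4 tj-GAL4 libraries. Early and mature cyst sums are higher in both sorted libraries, the muscle sum is lower in both, and gut, accessory gland and terminal epithelium sums are highest in unsorted replicate 2, at 2899, 3464 and 3760 CPM.

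Other cell types were uneven. Fat body markers gave 2 rises and 7 falls of 12, but their sum went from 249 and 712 CPM to 1610 and 1116 CPM. FASN1, a fatty acid synthase gene, made up most of the sorted sum, at 134 and 209 CPM unsorted and at 1494 and 1019 CPM sorted. None of the fat body falls was held. Fbp1, the receptor for storage proteins, fell by 4.72 ± 0.67, and Ilp6 was the other of the 2 rises. Of the accessory gland markers 2 of 11 fell and none rose, at a sum of 1060 and 3464 CPM unsorted and 870 and 746 CPM sorted. The accessory gland median was a log2 change of -1.52 with all libraries, -0.33 without unsorted replicate 2 and -2.24 without unsorted replicate 1. None of 8 gut markers was called by edgeR. At an unadjusted p under 0.05, 3 were lower, and DESeq2 called 2 and limma 1 lower. The gut median was a log2 change of -1.44 with all libraries, 0.18 without unsorted replicate 2 and -2.31 without unsorted replicate 1.

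The cytoplasmic ribosomal proteins turned on 1 library. None of the 91 tested genes was called in either direction by edgeR with all libraries, at a median of 0.94. At an unadjusted p under 0.05, 11 were higher and 2 lower, DESeq2 called 1 lower and limma none. A total of 82 rose without unsorted replicate 2, at a median of 2.04. Their summed level was 11119 and 36919 CPM unsorted and 48433 and 39494 CPM sorted, with unsorted replicate 2 near the sorted cells. Of 11 Y-linked fertility genes none was called by edgeR, 4 were lower at an unadjusted p under 0.05, DESeq2 called 3 and limma 0, and 9 fell without unsorted replicate 2. The Y-linked sum was 598 and 254 CPM unsorted and 126 and 242 CPM sorted.

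The X chromosome held a larger share of rises than the major autosome arms did. Of 1929 tested X-linked genes 230 rose (11.9%) and 35 fell (1.81%), and the arms of chromosomes 2 and 3 had 7.65% to 9.41% rises. The median log2 change was 0.22 on X and -0.23 to -0.07 on these arms. Without unsorted replicate 2 the X median was 0.43, and these arms lay at -0.22 to 0.01. Taken by replicate, the X median was 0.44 in replicate 1 and 0.20 in replicate 2, and in replicate 2 the autosome arms lay at 0.11 to 0.17. The small chromosome 4 had 5 rises and 5 falls of 84, with a median of 0.38, above that of X. Protein-coding genes rose in 9.64% of 11214 and non-coding RNA genes in 3.61% of 1218. Of the 257 held rises, 127 (49.4%) are known only by a CG or CR number, close to the 50.7% of all genes tested. CG13676 (4.82), CG43376 (4.72), CG13376 (4.65), CG11317 (4.64) and CG10352 (4.53) had the largest log2 changes among them, and CG43376 and CG10352 overlap a gene counted at a higher level.

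Genes that rose were in part neighbours. Among tested genes in genome order, 322 of the 1129 rises stood in 143 runs of 2 or more, and 29 runs had 3 or more. The longest run had 5 genes, CG14069, dpr2, CG14072 and 2 non-coding RNAs (2L, 10910051 to 10964153). Obp99a stood between ppk30 and ppk19 in a run of 4 (3R, 29666814 to 29674223), and hoe1 (3.21 ± 0.41) and hoe2 (4.11 ± 0.37), for homologs of the mouse pink-eyed dilution transporter, adjoined snsl in a run of 3 (2L, 4903865 to 4936450). LManI and LManII, and mthl9, mthl10 and mth, were further runs of paralogs. Paralogs can share reads, and no rate for runs under chance was computed.

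The tj-GAL4 and eya-GAL4 sorts were then set against each other by the difference of their enrichments. By edgeR no gene passed at an adjusted p under 0.05 (0.0% of 12570), and 1841 genes had an unadjusted p under 0.05. DESeq2 called 346 genes and limma 51. Counts moved with the unsorted libraries, as edgeR called 4195 genes without unsorted replicate 1 and 65 without unsorted replicate 2. Mean levels in sorted cells differed by gene: tj was at 37.2 CPM (mean) in tj-GAL4 sorted and 17.4 CPM in eya-GAL4 sorted cells, and stg at 31.5 and 12.9 CPM. dome was at 292 and 368 CPM and Six4 at 63.1 and 76.8 CPM. The 3 genes ranked highest per length above were all higher in eya-GAL4 sorted cells. Obp44a was at 13054 CPM in tj-GAL4 sorted and 23426 CPM in eya-GAL4 sorted cells, GstS1 at 20536 and 33420 CPM and Obp99a at 6017 and 13249 CPM. Adjusted p-values of the difference of enrichments were 0.33 for tj, 0.37 for stg, 0.83 for dome and 0.42 for Six4, which does not show that the enrichments were alike. The muscle gene Mp20 was at 18.1 CPM in eya-GAL4 unsorted and 16.7 CPM in eya-GAL4 sorted cells (means of 2), and its difference had an adjusted p of 0.19.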

How the data were processed

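Poly(A)+ RNA-seq of 8 libraries was used, per the labels' protocols from a directional kit. The submitters' processing notes list FastQC, Bowtie 1.2.2, HTSeq, DESeq2 and the build dm6. Neither labels nor headers state how counting used strand, so overlapping genes are uncertain, and 31 of 299 named genes overlap one at a higher level. Not all of these are marked above: cv, Tbh, Mlp84B, Zasp66 and CG5177 are among them too. The deposited table holds raw read counts per gene (16018 genes), gene length and RPM of the authors, per the file headers, and 20 further columns of repeated counts, RPKM and means were not used. Dm6 positions come from the reference annotation (15962 genes).

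The counts were tested with edgeR 4.0.16 (quasi-likelihood, TMM) in 12570 genes with a CPM of at least 1 in at least 2 libraries. All 4 groups were fitted together (4 residual degrees of freedom). Calls were two-sided and used an adjusted p (Benjamini-Hochberg) under 0.05, and the script was tested on simulated data. SE was taken as |log2 change| / sqrt(F). Alternatives used DESeq2 1.42.0 and limma 3.58.1 on log2(RPM + 1) of the deposited RPM. Named genes were the 4 markers and eya, and up to 25 of the largest held rises and held falls (mean CPM of at least 5). Up to 5 rises and falls with CG or CR numbers were added under the same conditions. The 15 highest per length and up to 6 called members of each of 69 lists, with defining members, completed the set. Others are marked as picked out after their values were seen, except some such as tn, hoe1 and Peritrophin-15a, which are also outside these rules. Members, lists and comparison were chosen with earlier results of these data known. Neighbouring runs and held calls were described with no test.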

Additional observations from a re-analysis of the deposited data

How the results depend on the processing

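With all 8 libraries 1428 genes were called (1129 higher, 299 lower). The 3 counts stayed within 1.5 times with DESeq2 size factors, a CPM of at least 5, mitochondrial genes left out and the replicate block. DESeq2's own test called 2530 (1472 higher, 1058 lower) and limma on log2(RPM + 1) called 589 (338 higher, 251 lower), both with a larger share of falls. With no filter 468 genes fell. The tj-GAL4 libraries alone gave 257 calls (227 higher, 30 lower). Leaving out 1 library gave 277 to 4463 calls, 257 to 3113 higher and 20 to 1670 lower. The difference of enrichments gave 346 calls by DESeq2, 51 by limma, 1 with no filter and 0 to 4195 with 1 library left out. DESeq2 size factors moved the median of all genes by -0.10.

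Same-numbered tj-GAL4 libraries share a replicate number and an index length, but they deviated in opposite directions (correlation -0.39 across genes). The labels name no other link between them. The replicate block gave 957 rises and 233 falls, and the crossed block, chosen after seeing the data, 2637 calls (2033 higher, 604 lower), with 1 gene for the difference of enrichments. Values that changed sign without unsorted replicate 2 were Mst57Db (-2.66 to 0.32 over the libraries left out), CG31226 (-1.52 to 0.29) and Socs36E (-0.80 to 0.98). Socs36E also turned under limma (0.018), the block (0.10) and the crossed block (0.11). The cause was not tested in any of these. Of 299 named genes, 172 called genes missed the threshold without sorted replicate 1 and 178 with the tj-GAL4 libraries alone. Depth limits low genes such as Ilp7, and 2 libraries a group limit every call.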
